A study of Saccharomyces cerevisiae with 5 samples.

Results

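The table of cap analysis of gene expression (CAGE) from Saccharomyces cerevisiae lists start clusters, short stretches of the genome where the capped 5' ends of RNAs pile up, and gives most of them the name of a gene. The clusters described here are those to which the authors' table gives no gene. They were chosen by an empty gene column, which holds only a dot, and selected on their level, 10 CPM (read counts scaled to the size of the library) or more in at least 1 of the 5 libraries. This left 912 clusters of 27176 distinct clusters in the table, 13.4% of the 6821 clusters without a gene and 13.3% of the 6875 clusters that reached the same level. The other 5963 clusters at that level have a gene and are called assigned clusters. The rule used the level, so the levels of the members are a description: those nearest to the limit had 10.0 and 10.1 CPM in their highest library on the inside, and 9.97 CPM on the outside.

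There were 5 groups with 1 library each, so no comparison between media or strains has a replicate check and no test or p-value is given. BY_DEH++ was grown in DEH for 2 days to an optical density (OD600) of 0.55, in mannitol for 1 day to 0.79, and in glucose overnight to 0.95. BY_DEH+ was grown in DEH for 3 days to 0.63 and in glucose overnight to 0.91. DEH (4-deoxy-L-erythro-5-hexoseulose uronate) is the uronic acid that alginate gives when it is cut to monomers, mannitol is a sugar alcohol, and both strains are given by name alone in the sources used here. All cultures were whole cells in 10 mL of HC-LN-based medium at 30 °C with 1% (w/v) of the carbon source, after preculture on solid YPGA. The starting OD600 was 0.05 in DEH, 0.02 in mannitol and 0.05 in glucose in BY_DEH++, and 0.2 in DEH and 0.05 in glucose in BY_DEH+. Medium cannot be told apart from inoculum, culture time and density, and in DEH neither can the strain. In such bulk samples fewer cells that make an RNA and less RNA per cell cannot be told apart either.

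By the CPM that 1 read was worth, a level of 10 CPM stood for 94 reads in the smallest library (95% Poisson interval 8.06 to 12.2 CPM) and for 199 reads in the largest (8.66 to 11.5 CPM), and the library totals were 9430000 to 19890000 reads. The lowest listed values were 0.50 to 0.57 CPM, and anything lower stands at 0. A cluster listed at 0 therefore gets no ratio. Folds are log2 ratios of CPM + 1, which understate the change of weak clusters, and a cluster is called higher or lower at 4-fold. Linear ratios carry 95% intervals from the read counts, which cover counting error only. The mannitol library is also the one whose title lacks the barcode ending of the others, and its part in the results was not tested.

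Yeast RNA polymerase II starts transcripts not only at the promoters of coding genes. Nucleosome-free regions fire in both directions, and the divergent transcripts are mostly cut short by the Nrd1-Nab3-Sen1 terminator and destroyed by the nuclear exosome as cryptic unstable transcripts, while others survive as stable unannotated transcripts or are removed in the cytoplasm by Xrn1. Further starts lie at the 3' ends of genes and read back over them as antisense RNA, some of which, as at PHO84 or IME4, take part in repressing the gene they overlap. The same polymerase also makes the spliceosomal and most nucleolar small RNAs, and the RNA of Ty retrotransposons, whose start sits inside the long terminal repeat (LTR).

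Sequences are given 5' to 3' on the strand of the cluster, from RefSeq, build R64. The first 6 surround narrow starts in LTRs, where the base of the start can be read directly. They reach from 30 bases before the cluster to 60 bases in all, and capitals mark the bases of the cluster itself. All 6 windows hold the 9-base run GGATTCCTA.
Ty2 LTR, chrII:9299-9358, plus strand: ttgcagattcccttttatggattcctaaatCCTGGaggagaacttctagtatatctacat
Ty1 LTR on chromosome VII, chrVII:876148-876207, plus strand: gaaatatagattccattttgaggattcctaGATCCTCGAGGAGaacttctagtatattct
Ty1 element YBRWTy1-2, chrII:265351-265410, plus strand: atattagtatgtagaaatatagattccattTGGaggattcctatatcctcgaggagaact
Ty1 LTR on chromosome V, chrV:431554-431613, minus strand: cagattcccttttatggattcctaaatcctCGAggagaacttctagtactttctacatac
Ty1 LTR on chromosome XI, chrXI:458207-458266, minus strand: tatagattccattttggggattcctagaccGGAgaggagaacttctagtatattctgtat
Ty1 LTR on chromosome IV, chrIV:1151245-1151304, plus strand: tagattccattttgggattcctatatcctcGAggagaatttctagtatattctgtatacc

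The next 4 are the 150 bases before the clusters of the small RNA genes with the highest levels, and here capitals mark TATAAA, the Reb1 site core CGGGTAA, the Gcn4 site core TGACTC and the run AAAAAAA, on either strand.
LSR1, chrII:681905-682054, minus strand: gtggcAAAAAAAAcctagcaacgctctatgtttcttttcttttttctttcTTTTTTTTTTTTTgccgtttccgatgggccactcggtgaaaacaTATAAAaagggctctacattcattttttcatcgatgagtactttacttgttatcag
SNR19, chrXIV:230720-230869, minus strand: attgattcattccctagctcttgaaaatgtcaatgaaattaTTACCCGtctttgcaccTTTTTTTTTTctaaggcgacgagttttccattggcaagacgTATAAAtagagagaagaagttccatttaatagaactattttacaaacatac
SNR30, chrXII:198596-198745, plus strand: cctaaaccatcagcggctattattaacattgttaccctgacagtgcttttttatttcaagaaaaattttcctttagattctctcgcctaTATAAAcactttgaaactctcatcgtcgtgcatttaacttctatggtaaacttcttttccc
SNR17B, chrXVI:281580-281729, minus strand: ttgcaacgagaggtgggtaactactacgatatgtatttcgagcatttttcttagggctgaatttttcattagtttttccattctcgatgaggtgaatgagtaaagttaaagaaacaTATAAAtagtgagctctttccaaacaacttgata
TATAAA begins 56 bases before the LSR1 cluster, 51 before the SNR19 cluster, 61 before the SNR30 cluster and 34 before the SNR17B cluster. A reverse CGGGTAA stands 109 bases before the SNR19 cluster.

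The last 3 are the 200 bases before clusters that differed most between DEH and glucose, 2 higher in DEH and 1 lower, with the same letters in capitals.
Intergenic start beyond NRG1, chrIV:544557-544756, plus strand: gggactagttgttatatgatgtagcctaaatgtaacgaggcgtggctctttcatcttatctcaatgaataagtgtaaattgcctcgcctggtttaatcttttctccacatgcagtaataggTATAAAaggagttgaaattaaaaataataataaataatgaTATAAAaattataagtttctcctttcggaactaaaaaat
Intergenic start beyond JEN1, chrXI:21265-21464, minus strand: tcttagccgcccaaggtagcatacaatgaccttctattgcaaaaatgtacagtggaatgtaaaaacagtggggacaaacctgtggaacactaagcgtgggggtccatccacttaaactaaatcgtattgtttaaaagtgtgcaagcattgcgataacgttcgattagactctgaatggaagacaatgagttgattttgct
Antisense start of CAK1, chrVI:77875-78074, plus strand: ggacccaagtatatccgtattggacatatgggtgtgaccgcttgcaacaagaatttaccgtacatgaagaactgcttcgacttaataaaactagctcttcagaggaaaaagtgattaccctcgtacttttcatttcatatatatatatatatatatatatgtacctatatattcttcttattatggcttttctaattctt
The start beyond NRG1 has TATAAA 79 and 39 bases before it, and the other 2 windows hold none of the 4 motifs.

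The starts without a gene were weak and often seen in few libraries. Their median mean level was 10.5 CPM, against 51.1 CPM in assigned clusters, and 413 (45.3%) peaked between 10 and 20 CPM, against 639 assigned clusters (10.7%). All 5 libraries reached 10 CPM in 142 members (15.6%) and in 77.1% of assigned clusters. Only 1 library did so in 285 members (31.2%), against 419 assigned clusters (7.03%). Since such a member passed through the library where it is high, that library had to stand above its others. The same holds for the libraries of a medium in which alone a member reached 10 CPM. The counts of calls that follow are thus a description. Cluster width was similar, with medians of 107 and 116 bases. In 54 members (5.92%) and 66 assigned clusters (1.11%) the 50 bases from the middle of the cluster onward recur in the genome. Reads of these can be placed at another copy. Only exact copies were counted, so near-identical ones are missed.

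By the R64 annotation most members lay away from the starts of coding genes. There were 405 between genes (44.4%), 271 opposite to a gene (29.7%), 86 inside a gene on its strand (9.43%), 84 on LTRs or Ty elements (9.21%), 53 on a noncoding RNA gene (5.81%) and 13 within 500 bases upstream of a gene (1.43%). Among assigned clusters, 4087 lay inside a gene and 1630 upstream of one, so the classes mostly follow the authors' naming. Within 500 bases of the start of a gene on the other strand, where divergent transcripts arise, lay 331 members at a median distance of 263 bases, of which 206 were intergenic and 91 antisense.

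**Figure D1:**
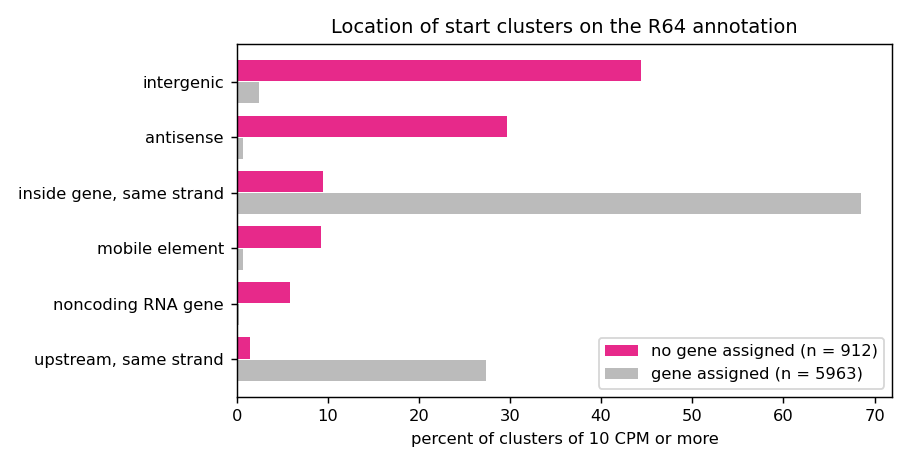
Location of start clusters of 10 CPM or more on the R64 annotation, as a percent of the 912 clusters without a gene (upper bars) and of the 5963 assigned clusters (lower bars). Intergenic and antisense starts make up 44.4% and 29.7% of the clusters without a gene.

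Antisense starts sat toward the 3' end of the gene they oppose. Of 265 over coding genes, 180 (67.9%) began in the last of 3 equal parts of the sense gene, 45 (17.0%) in the middle and 40 (15.1%) in the first. Starts inside genes on the sense strand were far from the beginning, at a median of 1362.5 bases, with 78 of 86 (90.7%) at 1000 bases or more, against 28 of the assigned clusters inside genes (0.685%). Intergenic starts were 2802 bases from the next gene on their strand at the median, and 28 were within 1000 bases of one. The distances of the inside and intergenic starts, like the classes, mostly follow the authors' naming, which chose the members. Near chromosome ends, within 20000 bases, lay 76 members (8.33%) and 135 assigned clusters (2.26%).

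In the 200 bases before the clusters, TATAAA, on either strand, stood before 32.6% of members and 33.8% of assigned clusters, AAAAAAA before 38.2% and 44.8%, CGGGTAA before 5.59% and 8.97%, and TGACTC before 6.91% and 6.39%. In the last 100 bases the shares were 23.4% and 19.5% for TATAAA, 25.1% and 34.1% for AAAAAAA, 3.40% and 6.98% for CGGGTAA and 3.62% and 3.04% for TGACTC, so that for TATAAA the side with the larger share turned with the window. Among the members TATAAA was found before 53.6% of mobile element starts and 43.4% of those on noncoding RNA genes, against 5.81% inside genes. The share of A and T was 63.5% before members and 64% before assigned clusters. Such a match describes letters and is not a binding site.

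The members took 3.75% of all CPM in DEH, 4.37% in mannitol and 4.23% in glucose in BY_DEH++, and 5.45% in DEH and 4.50% in glucose in BY_DEH+. A few small RNA genes decided these shares. Without LSR1, SNR19, SNR30 and SNR17B they were 1.42%, 1.82% and 2.55% in BY_DEH++, and 2.01% and 2.85% in BY_DEH+, lower in DEH and mannitol than in glucose. Antisense starts took 0.243%, 0.209% and 0.593% in BY_DEH++ in the same order of media, and 0.441% and 0.655% in BY_DEH+. Counted as members at 10 CPM or more, the libraries held 310 in DEH, 315 in mannitol and 566 in glucose in BY_DEH++, and 511 in DEH and 636 in glucose in BY_DEH+.

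In DEH against glucose, many more of the starts without a gene were lower than higher. In BY_DEH++ 34 were 4-fold higher and 198 lower, where all 6875 clusters gave 4.10% higher and 6.84% lower. In BY_DEH+ 85 were higher and 206 lower, against 4.83% and 8.42% of all clusters. In both strains alike 25 were higher and 131 lower, against 2.04% and 4.35%. The median fold of the members was -0.87 in BY_DEH++ and -0.45 in BY_DEH+, and that of all clusters -0.17 and 0.05. Of the 364 members past 4-fold in BY_DEH++ or BY_DEH+, the sign was shared by 323 (88.7%), and 3 were called in opposite directions.

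By level, among members that reached 50 CPM, 23 of 171 (13.5%) were lower in DEH in both strains, against 76 of 3843 assigned clusters (1.98%). Between 20 and 50 CPM the shares were 14.6% and 2.90%, and between 10 and 20 CPM 14.5% and 7.67%. These level bands were chosen after values were seen and use the highest CPM, the value that also chose the members, so they are a description. By place, 60 of 271 antisense starts (22.1%) were lower in both strains, 49 of 405 intergenic starts (12.1%), 11 of 84 on mobile elements (13.1%), 9 inside genes and 2 on noncoding RNA genes. The 25 higher ones were 11 intergenic, 7 antisense, 4 inside genes and 3 on noncoding RNA genes.

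**Figure D2:**
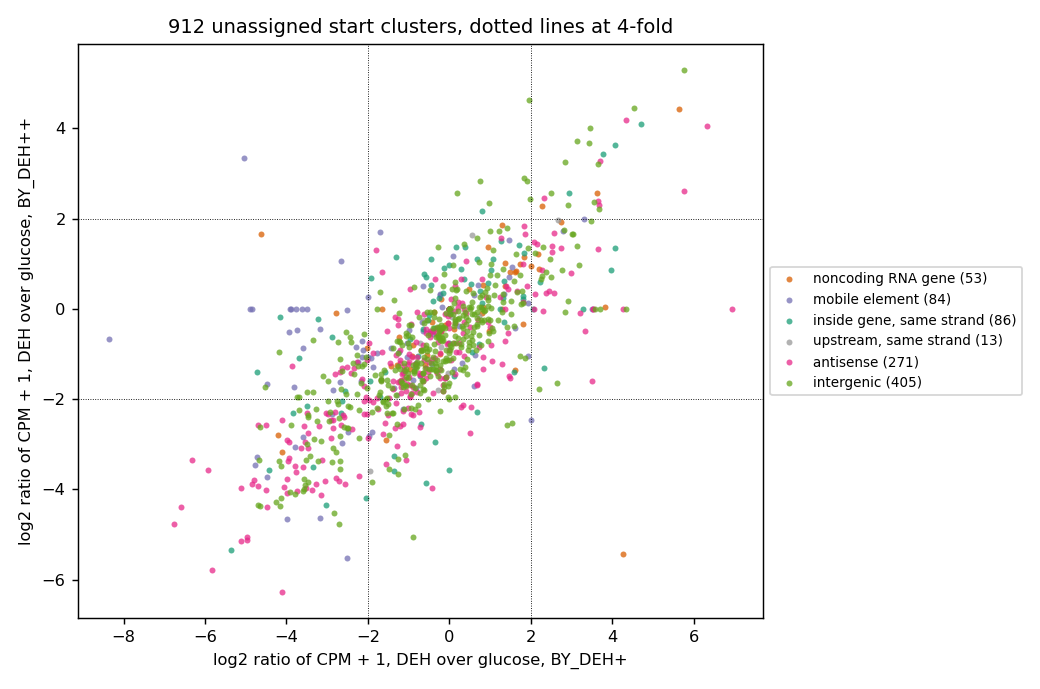
Log2 ratios of CPM + 1 for DEH over glucose in BY_DEH++ (vertical axis) and in BY_DEH+ (horizontal axis), 1 point per cluster without a gene, coloured by location, with dotted lines at 4-fold. The lower left corner holds the 131 clusters lower in DEH in both strains and the upper right corner the 25 higher ones. The points on the 0 line of BY_DEH++ at the left include Ty clusters seen in BY_DEH+ alone.

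Some antisense starts were lower in DEH where the gene they oppose was higher. In the 206 pairs in which both were measured, the antisense start was lower in both strains in 48, and 8 of these sense genes were 4-fold higher in both strains while 0 were lower, where 85 of 5275 genes were higher in both and 82 lower. In the 152 pairs whose antisense start was called in neither direction, 5 sense genes were higher in both and 7 lower. The antisense starts of the 8 passed the level rule in glucose alone, so that they were lower in DEH follows from the choice of members. At 2-fold 9 of the 48 sense genes (18.8%) were higher in both strains and 3 (6.25%) lower, against 294 (5.57%) and 308 (5.84%) of 5275 genes. Most of the 48 antisense starts thus differed without such a difference of the sense gene. Both values of a pair come from the same libraries, and many antisense values lie near the lowest that is listed.

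The 8 sense genes were FBP1, PCK1, SIP4, JEN1, FOX2, MLS1, QDR1 and AGX1. At FBP1, a gluconeogenic fructose-1,6-bisphosphatase, the antisense start at chrXII:873721-873802 had 2.46 CPM in DEH, 0 in mannitol and 18.1 in glucose in BY_DEH++, and 1.68 in DEH and 19.2 in glucose in BY_DEH+. FBP1 itself had 497, 29.5 and 6.26 CPM in BY_DEH++ in the same media, and 887 and 5.73 CPM in BY_DEH+. The antisense start was high in both glucose cultures alone, and the gene was highest in both DEH cultures. At PCK1, phosphoenolpyruvate carboxykinase, the antisense start was listed at 0 in DEH and mannitol and had 11.2 CPM in glucose in BY_DEH++, and was at 0 in DEH with 12.5 CPM in glucose in BY_DEH+. PCK1 had 1978, 257 and 37.0 CPM in BY_DEH++, and 2131 and 46.6 CPM in BY_DEH+.

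SIP4, an activator of gluconeogenic genes, had the strongest of these antisense starts, with 1.91 CPM in DEH, 2.96 in mannitol and 78.7 in glucose in BY_DEH++, and 0 in DEH and 107 in glucose in BY_DEH+. The gene had 75.1, 12.5 and 10.2 CPM in BY_DEH++, and 175 and 6.89 CPM in BY_DEH+. JEN1, a lactate and pyruvate permease, had an antisense start at 0 in DEH and in mannitol, with 13.6 CPM in glucose in BY_DEH++, and at 0 in DEH with 27.6 CPM in glucose in BY_DEH+. At FOX2, a peroxisomal enzyme of beta-oxidation, and MLS1, malate synthase, antisense starts had 14.5 and 12.2 CPM in glucose in BY_DEH++ and 15.7 and 14.4 CPM in glucose in BY_DEH+, with 0.70 CPM or less in DEH. The other 2 pairs were QDR1, a drug exporter, and AGX1, alanine-glyoxylate aminotransferase, whose antisense starts were at 0 in DEH in both strains.

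The reverse pattern appeared at GCV1, a subunit of glycine decarboxylase. Its antisense start had 4.22 CPM in DEH in BY_DEH++ and 11.5 CPM in DEH in BY_DEH+, and was listed at 0 in mannitol and in both glucose cultures. The gene had 11.2 CPM in DEH, 155 in mannitol and 420 in glucose in BY_DEH++, and 29.6 in DEH and 261 in glucose in BY_DEH+. The start opposite CAK1, the kinase that activates Cdc28, was at 0 in DEH and in mannitol with 54.1 CPM in glucose in BY_DEH++, and at 0 in DEH with 55.4 CPM in glucose in BY_DEH+. CAK1 itself had 23.6, 18.0 and 27.6 CPM in BY_DEH++ and 31.8 and 25.7 CPM in BY_DEH+, within 2-fold throughout. The pairs at FOX2, JEN1, QDR1, AGX1 and GCV1 were singled out after their values were seen.

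**Figure D3:**
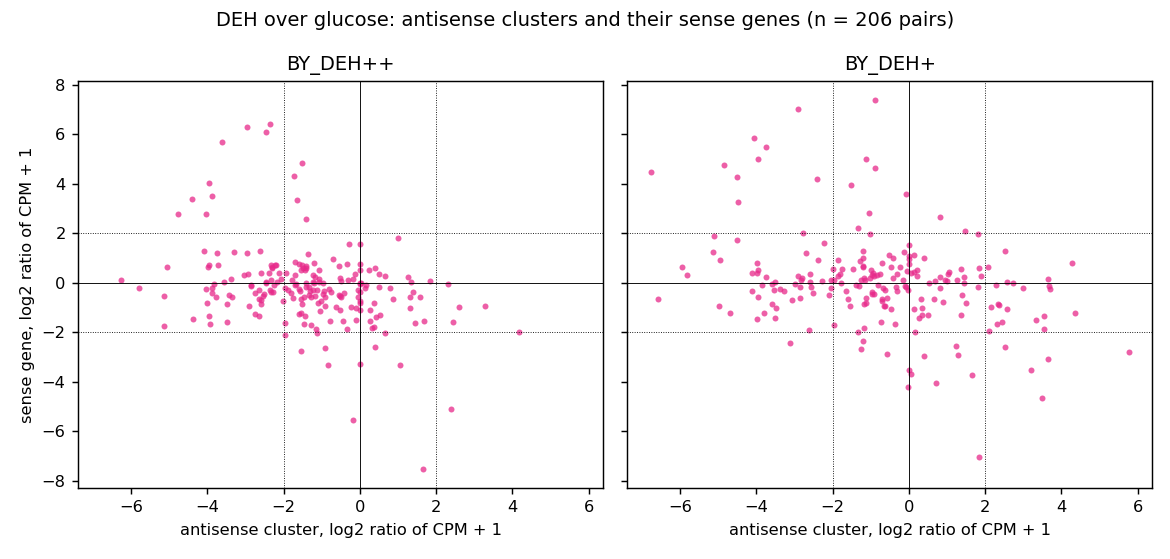
Log2 ratios of CPM + 1 for DEH over glucose of antisense clusters (horizontal axis) and of the genes they oppose (vertical axis) in BY_DEH++ (left) and BY_DEH+ (right), 206 pairs, dotted lines at 4-fold. The upper left corner of each panel, with the antisense start lower and the gene higher, holds 9 pairs in BY_DEH++ and 9 in BY_DEH+, and the lower left corner 0 and 1.

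Further antisense starts with large differences were opposite BDH2, a butanediol dehydrogenase homologue, at 2.46 CPM in DEH, 22.8 in mannitol and 120 in glucose in BY_DEH++, and 2.43 in DEH and 107 in glucose in BY_DEH+. BDH2 had 17.0, 7.64 and 25 CPM in BY_DEH++, and 12.0 and 24.1 CPM in BY_DEH+. The start opposite MOT2, a subunit of Ccr4-Not, was at 0 in DEH and mannitol with 32.5 CPM in glucose in BY_DEH++, and at 0 in DEH with 30.1 CPM in glucose in BY_DEH+. Higher in DEH was the start opposite SPO1, a meiotic gene, at 15.6 CPM in DEH and 0 in mannitol and glucose in BY_DEH++, and 79.2 in DEH and 0 in glucose in BY_DEH+. The start opposite HIS1, the first enzyme of histidine synthesis, likewise had 5.08 CPM in DEH in BY_DEH++ and 53.2 CPM in DEH in BY_DEH+, and 0 in the other 3 libraries.

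Most divergent starts that differed with DEH had a partner gene within 4-fold. Of 43 divergent members lower in DEH in both strains with a measured partner, 7 partners were also 4-fold lower in both and 0 were higher, where 82 of 5275 genes were lower in both and 85 higher. At 2-fold 12 of the 43 partners (27.9%) were lower in both strains and 1 (2.33%) was higher, against 308 (5.84%) and 294 (5.57%) of 5275 genes. Of 4 divergent starts that were higher in both at 4-fold, 1 partner was higher too. In BY_DEH++ alone 8 of 69 partners of lower starts were lower and 1 was higher, and in BY_DEH+ 15 of 59 were lower and 0 higher, where 135 of all genes were lower in BY_DEH++ and 227 in BY_DEH+. The start beside COX5B, the hypoxic form of a cytochrome oxidase subunit, lies 246 bases away and had 0 CPM in DEH, 36.6 in mannitol and 76.1 in glucose in BY_DEH++, and 4.48 in DEH and 93.6 in glucose in BY_DEH+. COX5B had 3.57, 105 and 67.7 CPM in BY_DEH++, and 6.91 and 72.0 CPM in BY_DEH+, so that the gene but not the divergent start was highest in mannitol in that strain.

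SRY1, a hydroxyaspartate dehydratase, and its divergent start were both low in DEH: the start had 3.37 CPM in DEH, 10.9 in mannitol and 61.6 in glucose in BY_DEH++, and 5.51 in DEH and 70.8 in glucose in BY_DEH+. The gene had 8.95, 28.4 and 140 CPM in BY_DEH++, and 8.13 and 125 CPM in BY_DEH+. SDT1, a pyrimidine nucleotidase, kept more of its level, with 75.1 CPM in DEH, 135 in mannitol and 343 in glucose in BY_DEH++, and 69.5 in DEH and 367 in glucose in BY_DEH+. Its divergent start had 2.97, 22.0 and 81.9 CPM in BY_DEH++, and 0 and 94.7 CPM in BY_DEH+. The pair higher in DEH was at DDI3, a cyanamide hydratase with a near-identical copy elsewhere, so that its reads may come from either, whose divergent start had 7.29 CPM in DEH, 0 in mannitol and 0.68 in glucose in BY_DEH++, and 14.5 in DEH and 1.06 in glucose in BY_DEH+.

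Among intergenic starts higher in DEH, the strongest was on chrIV:544757-544886, plus strand, whose sequence is given above. It lies 1388 bases from NRG1, a repressor of glucose-repressed genes, and had 38.1 CPM in DEH and 0 in mannitol and glucose in BY_DEH++, and 134 in DEH and 1.49 in glucose in BY_DEH+. The start on chrXI:21104-21264, 970 bases from JEN1, had 20.8 CPM in DEH in BY_DEH++ and 22.1 CPM in DEH in BY_DEH+, and was listed at 0 in the other 3 libraries. JEN1 itself had 1342 CPM in DEH, 172 in mannitol and 116 in glucose in BY_DEH++, and 1515 in DEH and 54.7 in glucose in BY_DEH+. A start 555 bases from ICL1, isocitrate lyase of the glyoxylate cycle, had 15.2 CPM in DEH in BY_DEH++ and 10.0 CPM in DEH in BY_DEH+ and 0 elsewhere.

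Others in this direction lay 630 bases from PMP3, a small membrane protein, with 39.3 CPM in DEH, 6.88 in mannitol and 2.18 in glucose in BY_DEH++, and 43.8 in DEH and 3.18 in glucose in BY_DEH+. The start 295 bases from ADH6, an NADPH-dependent alcohol dehydrogenase, had 52.0, 12.8 and 7.99 CPM in BY_DEH++, and 67.9 and 11.2 CPM in BY_DEH+. Near UBC8, a ubiquitin-conjugating enzyme that acts in the turnover of fructose-1,6-bisphosphatase, a start had 12.2 CPM in DEH, 1.63 in mannitol and 0 in glucose in BY_DEH++, and 23.5 in DEH and 1.80 in glucose in BY_DEH+. In each of these the DEH cultures of both strains were above all other libraries. The starts near PMP3 and UBC8, and those above near NRG1, JEN1 and ICL1, passed the level rule in DEH alone. That these were higher there follows from the choice of members.

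Inside genes on the sense strand, a start in HPF1, a cell wall mannoprotein, had 50.5 CPM in DEH, 0 in mannitol and 3.16 in glucose in BY_DEH++, and 56.6 in DEH and 2.44 in glucose in BY_DEH+. The HPF1 gene moved the same way, with 1814, 16.8 and 304 CPM in BY_DEH++, and 3112 and 171 CPM in BY_DEH+. The opposite was seen in ICL2, the 2-methylisocitrate lyase of propionate breakdown. Its internal start had 0 CPM in DEH, 4.40 in mannitol and 39.3 in glucose in BY_DEH++, and 0 in DEH and 40.0 in glucose in BY_DEH+. The ICL2 gene had 230, 4.68 and 1.73 CPM in BY_DEH++, and 313 and 0.85 CPM in BY_DEH+, so the internal start was seen where the gene was nearly silent.

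Starts on noncoding RNA genes carried more of the reads than any other class of members: 2.78% of all CPM in DEH, 3.47% in mannitol and 2.14% in glucose in BY_DEH++, and 3.95% in DEH and 2.10% in glucose in BY_DEH+. The 53 clusters lie on 14 small nucleolar RNA genes, 2 spliceosomal RNA genes (13 clusters on LSR1 and 1 on SNR19), telomerase RNA, RNase P RNA, RNase MRP RNA, signal recognition particle RNA, ribosomal DNA and named long noncoding RNAs. Cap trapping selects capped RNA, so the level of a start cluster is not the total level of such an RNA.

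The U2 RNA LSR1 had its highest start cluster at chrII:681552-681904, minus strand, with 11945 CPM in DEH, 4312 in mannitol and 8380 in glucose in BY_DEH++, and 16242 in DEH and 6327 in glucose in BY_DEH+. DEH was 1.43 times glucose in BY_DEH++ (95% counting interval 1.42 to 1.44) and 2.57 times in BY_DEH+ (2.54 to 2.59). The U1 RNA SNR19 had 6915 CPM in DEH, 4070 in mannitol and 3446 in glucose in BY_DEH++, and 11667 in DEH and 4502 in glucose in BY_DEH+, or 2.01 times glucose in BY_DEH++ (1.99 to 2.03) and 2.59 times in BY_DEH+ (2.56 to 2.62). Both spliceosomal RNAs were thus higher in DEH in each strain, by less than 4-fold. Over the 13 LSR1 clusters, which belong to 1 gene and are not independent, the median fold was 0.88 in BY_DEH++ and 1.85 in BY_DEH+ for DEH over glucose, and -1.86 for mannitol over glucose.

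The small nucleolar RNAs, which guide modification and cleavage of ribosomal RNA, stood out in mannitol. Of the 14 genes 8 were 4-fold higher in mannitol than in glucose and 0 lower, with a median fold of 2.12, where all clusters gave 6.47% higher and 13.0% lower and a median of -0.56. Among the 8 are SNR49 and SNR35, with 75.9 and 15.6 CPM in mannitol. Both passed the level rule in mannitol alone, so that they were higher there follows from the choice of members. For DEH over glucose 0 were called in either strain, and 10 were lower in DEH than in mannitol. The largest was SNR17B, a U3 gene needed for cutting the ribosomal RNA precursor, at chrXVI:281301-281579: it had 9.91 CPM in DEH, 14650 in mannitol and 32.5 in glucose in BY_DEH++, and 32.8 in DEH and 76.8 in glucose in BY_DEH+. Mannitol was 451 times glucose (95% counting interval 410 to 497).

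The second U3 gene, SNR17A, encodes a nearly identical RNA, and reads of either gene can be placed at the other, so the split between them is uncertain. The table gives the cluster at SNR17A to the neighbouring gene DFR1, and it had 1620 CPM in DEH, 3692 in mannitol and 877 in glucose in BY_DEH++, and 1529 in DEH and 1048 in glucose in BY_DEH+, again with mannitol highest. Without SNR17B, 7 of 13 genes were still higher in mannitol. SNR37 had 749, 4524 and 1150 CPM in BY_DEH++, and 695 and 1626 CPM in BY_DEH+, with mannitol at 3.93 times glucose (3.86 to 4.01).

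Weaker nucleolar RNAs did the same. SNR11 had 28.2 CPM in DEH, 290 in mannitol and 39.8 in glucose in BY_DEH++, and 27.9 in DEH and 37.1 in glucose in BY_DEH+. SNR31 had 19.2, 313 and 18.7 CPM in BY_DEH++, and 33.0 and 18.0 CPM in BY_DEH+. The 2 that were lower at 2-fold were SNR30, a box H/ACA RNA needed for cutting the precursor, and SNR86. SNR30 had 3613 CPM in DEH, 2240 in mannitol and 4506 in glucose in BY_DEH++, and 5074 in DEH and 5154 in glucose in BY_DEH+, and SNR86 had 1347, 596 and 1431 CPM in BY_DEH++, and 1191 and 685 CPM in BY_DEH+.

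**Figure D4:**
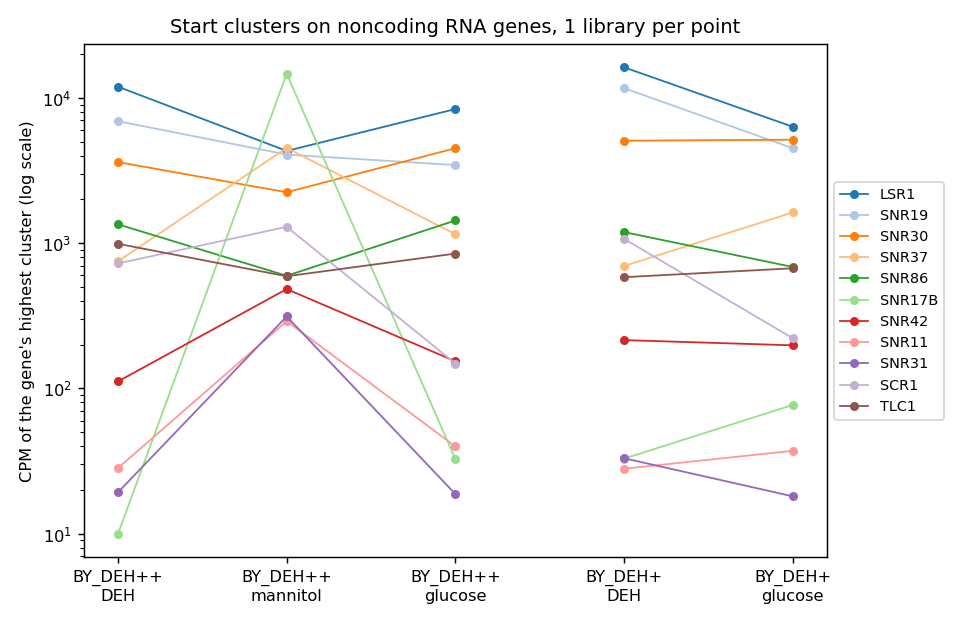
CPM of the highest start cluster of 11 noncoding RNA genes in each library, on a log axis, 1 library per point, with lines joining the media of each strain. In mannitol SNR17B reached 14650 CPM, against 9.91 CPM in DEH and 32.5 CPM in glucose of the same strain, while LSR1 and SNR30 were lowest there.

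SCR1, the RNA of the signal recognition particle, and RPR1, the RNA of RNase P, are made by RNA polymerase III, whose transcripts do not get the cap of messenger RNA, and both still gave start clusters. SCR1 had 724 CPM in DEH, 1295 in mannitol and 148 in glucose in BY_DEH++, and 1069 in DEH and 221 in glucose in BY_DEH+, which is 4.89 times glucose for DEH in BY_DEH++ (95% counting interval 4.66 to 5.13), 8.75 times for mannitol (8.34 to 9.18) and 4.83 times for DEH in BY_DEH+ (4.61 to 5.07). RPR1 had 64, 128 and 16.9 CPM in BY_DEH++, and 87.1 and 34.9 CPM in BY_DEH+. NME1, the RNase MRP RNA, had 70.5, 268 and 73.9 CPM in BY_DEH++, and 88.6 and 116 CPM in BY_DEH+. The telomerase RNA TLC1 had 989, 591 and 847 CPM in BY_DEH++, and 582 and 671 CPM in BY_DEH+, within 2-fold in each strain.

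Of 21 loci listed for a known regulatory noncoding RNA, 13 (61.9%) had a member on them or within 2500 bases upstream, as had 1270 of 6021 coding genes (21.1%). The loci were listed because they carry such RNAs, and the 4 structural RNA genes TLC1, SCR1, RPR1 and NME1 were counted apart. RME2, the antisense RNA of the RNA methyltransferase gene IME4, had 88.7 CPM in DEH, 21.5 in mannitol and 114 in glucose in BY_DEH++, and 113 in DEH and 122 in glucose in BY_DEH+. The GAL10 antisense RNA had 35.6, 13.8 and 50.2 CPM in BY_DEH++, and 49.0 and 56.5 CPM in BY_DEH+. Both were lowest in mannitol and changed little with DEH. IRT1, made across the promoter of the meiotic activator IME1, reached 12.3 CPM in mannitol, where BY_DEH++ had 3.52 CPM with DEH and 0.75 CPM with glucose, and BY_DEH+ had 5.42 CPM with DEH and 2.33 CPM with glucose.

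RME3, opposite ZIP2, followed glucose, with 3.92 CPM in DEH, 5.35 in mannitol and 35.9 in glucose in BY_DEH++, and 11.9 in DEH and 36.9 in glucose in BY_DEH+. Opposite the phosphate transporter gene PHO84, a cluster at chrXIII:24810-25009 was seen in mannitol alone, at 21.8 CPM. It lies inside the annotated antisense RNA, which spans 23564 to 26578, and not at its start. Whether that RNA was made in the other media is not shown by it. Near ZRT1, the high-affinity zinc transporter, a start on the other strand at chrVII:19769-20174 had 32.5 CPM in DEH, 0.76 in mannitol and 118 in glucose in BY_DEH++, and 71.5 in DEH and 80.3 in glucose in BY_DEH+. ZRT1 itself was also lowest in mannitol, with 4734, 136 and 10393 CPM in BY_DEH++, and 3572 and 4952 CPM in BY_DEH+. Over 15 long noncoding RNAs the median fold was -1.01 in BY_DEH++ and -0.54 in BY_DEH+ for DEH over glucose, and -1.47 for mannitol over glucose.

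Ty elements move through an RNA copy that starts in the 5' LTR, and most of the 84 members on them were lower away from glucose: 57 were lower in DEH than in glucose in BY_DEH++, 63 in BY_DEH+, and 62 were lower in mannitol. Many of them, such as those on YMRCTy1-3, reached 10 CPM in glucose alone. These passed the rule only there and had to be lower elsewhere, so the counts are a description. At 4-fold DEH gave 15 lower and 1 higher in BY_DEH++, and 37 lower and 4 higher in BY_DEH+, while mannitol gave 34 lower and 2 higher. The shares lower were 17.9% in BY_DEH++, 44.0% in BY_DEH+ and 40.5% in mannitol, against 6.84%, 8.42% and 13.0% of all clusters and 21.7%, 22.6% and 32.9% of all members. In BY_DEH++ the Ty clusters were thus no more often lower in DEH than all members together. An LTR holds the middle of 47 of the members, 36 on its own strand, and 30 members lie on full-length elements. In 29 the 50 bases from the middle of the cluster recur in the genome, so for those the copy that made the RNA is uncertain.

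Chosen after their values were seen, the 12 clusters of at most 25 bases that lie 200 to 250 bases into an LTR began at 219 to 245 bases, with a median width of 3.5 bases, a position and width that the choice sets. Other narrow starts lay elsewhere in LTRs. In 11 of 12 DEH was below glucose in each strain, the exceptions being YBRWTy1-2 in BY_DEH++ and a Ty2 LTR on chromosome XIV in BY_DEH+, and in 12 of 12 mannitol was below glucose, with 7 listed at 0 there. Their median fold was -1.19 in BY_DEH++ and -2.05 in BY_DEH+ for DEH, and -5.04 for mannitol. Some of the 12, such as the one in a Ty3 LTR on chromosome XV, passed the level rule in glucose alone. The strongest by far was the Ty2 LTR at chrII:9329-9333, plus strand, whose cluster bases are CCTGG in the sequence above. Its 50 bases from the middle of the cluster occur at 2 places in the genome. It had 269 CPM in DEH, 25.5 in mannitol and 2953 in glucose in BY_DEH++, and 106 in DEH and 2927 in glucose in BY_DEH+.

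At that LTR DEH was 0.091 times glucose in BY_DEH++ (95% counting interval 0.0885 to 0.0937) and 0.0363 times in BY_DEH+ (0.0342 to 0.0385), and mannitol was 0.00864 times glucose (0.00763 to 0.00975). The Ty1 LTRs were weaker and less uniform. The one on chromosome VII, whose 50 bases from the middle of the cluster occur at 58 places, had 123 CPM in DEH, 70.9 in mannitol and 201 in glucose in BY_DEH++, and 49.0 in DEH and 221 in glucose in BY_DEH+. The one on chromosome V had 3.67 CPM in DEH, 0 in mannitol and 213 in glucose in BY_DEH++, and 32.1 in DEH and 188 in glucose in BY_DEH+. In YBRWTy1-2, a full-length element, DEH was above glucose in BY_DEH++, with 134 CPM in DEH, 36.3 in mannitol and 94.7 in glucose, and below it in BY_DEH+, with 112 and 177 CPM. This start, like that on YJRWTy1-2, lies in the LTR at the 3' end of its element. The other narrow starts chosen above are on LTRs outside full-length elements, so none of them is a start in the 5' LTR of such an element.

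**Figure D5:**
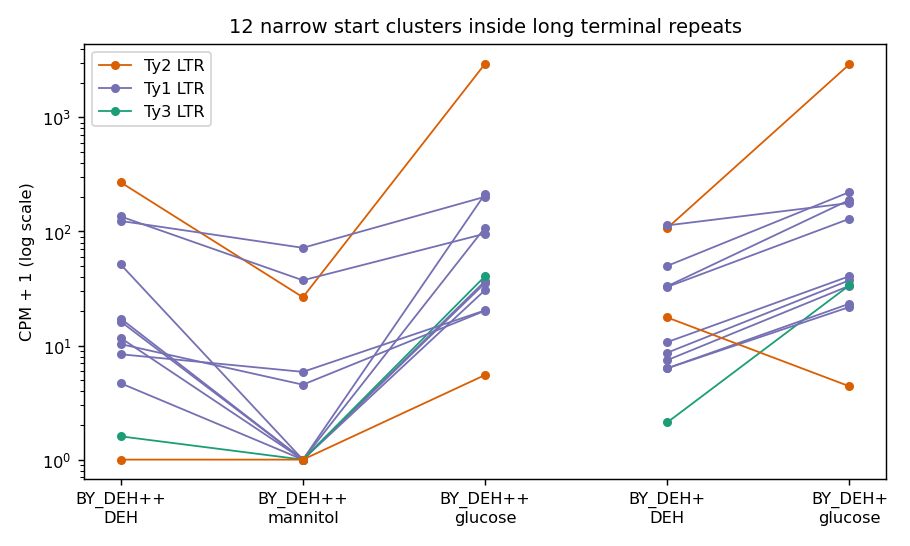
CPM + 1 of the 12 narrow LTR starts in each library, on a log axis, with lines joining the media of each strain and colours for the Ty family of the LTR. The Ty2 start on chromosome II stands at 269 CPM in DEH and 25.5 CPM in mannitol, against 2953 CPM in glucose in BY_DEH++, and at 106 CPM in DEH, against 2927 CPM in glucose in BY_DEH+; 7 starts stand at 0 in mannitol.

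The Ty1 element YMRCTy1-3 on chromosome XIII was a case of 1 library. Its 7 clusters summed to 0 CPM in DEH, 0 in mannitol and 2.78 in glucose in BY_DEH++, and to 2.06 in DEH and 452 in glucose in BY_DEH+. Of these 452 CPM, 324 came from 1 cluster on the plus strand, opposite to the element. In all 7 the bases from the middle of the cluster onward recur elsewhere. They are 7 of the 37 Ty members lower in DEH in BY_DEH+, and 7 of the 14 mobile element members that were 4-fold lower in BY_DEH++ than in BY_DEH+ in glucose, where 0 were higher.

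Mannitol against glucose gave 83 members higher and 300 lower at 4-fold, where all clusters gave 6.47% and 13.0% (19.5% either way), with a median of -1.26 against -0.56 over all clusters. Among antisense starts 14 were higher and 115 (42.4%) lower, and among intergenic starts 28 were higher and 113 lower. Among members that reached 50 CPM, 60 of 171 (35.1%) were lower, against 351 of 3843 assigned clusters (9.13%). Seen in mannitol alone was an antisense start of SED1, a cell wall protein, at 57.8 CPM. DEH against mannitol gave 123 higher and 108 lower, against 6.88% and 5.50% of all clusters, and with median-of-ratios scaling 113 higher and 134 lower, so no side prevails.

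Fewer members passed 4-fold between the strains than between the media. In DEH 18 members were 4-fold higher and 89 lower in BY_DEH++ than in BY_DEH+, against 1.79% and 3.87% of all clusters (5.66% either way), and with median-of-ratios scaling the split was 25 and 63. In glucose 5 were higher and 25 lower, against 0.465% and 0.975%. BY_DEH++ in DEH was the one library at 10 CPM or more in 6 members and BY_DEH+ in DEH in 102, a count that rests on the value that chose the members, and among assigned clusters the counts were 14 and 119. An antisense start of HXT11, a hexose transporter homologue, whose 50 bases from the middle of the cluster occur at 2 places, had 122 CPM in DEH in BY_DEH+ and was listed at 0 in every other library.

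Genes whose products end or degrade noncoding transcripts were counted at 2-fold. Of 45 names, of which RRP41 and SKI6 are the same gene, 44 genes were measured. They cover the Nrd1-Nab3-Sen1 complex, the nuclear exosome and its cofactors, Xrn1 and decapping, nonsense-mediated decay and chromatin factors that act on cryptic starts. At 2-fold 1 was higher and 0 lower for DEH over glucose in BY_DEH++, and 0 were called in BY_DEH+, where the shares of all genes were 9.12% up and 11.8% down for BY_DEH++ and 11.5% up and 10.6% down for BY_DEH+. The one was MTR4, the helicase of the exosome cofactor TRAMP, with 130 CPM in DEH against 49.2 CPM in glucose. For mannitol over glucose 3 were higher and 10 lower, where 9.86% of all genes were higher and 29.1% lower.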

How the data were processed

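Capped RNA of 5 yeast cultures was measured by CAGE on a NextSeq500 after cap trapping with a DNAFORM kit, per the labels' protocols. Per the submitters' processing notes BWA and HISAT2 were used with the build mm9, no version given. mm9 is a mouse build, while the cluster names carry sequence names of yeast R64, which was used here. How clusters were made and given to genes is not given in the sources used here. The values are normalized signal, which the authors scaled to CPM of each library, as the deposited table is named. They were recorded as signal, not CPM as planned, because clusters with several genes are repeated: 29960 lines hold 27176 clusters, each used here 1 time.

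Cluster starts were moved 1 base on, to count from 1, since 65.7% of 204 clusters of 1 base then began on a purine after a pyrimidine and 7.84% without the shift. The CPM of 1 read came from the steps between low values and served for depths and intervals only. Genes were measured as the sum of their clusters from 500 bases upstream to 100 bases downstream of the coding start. A cluster went to the first class that fitted, in the order noncoding RNA gene, mobile element, inside a gene, upstream, antisense, intergenic. Folds were log2 ratios of CPM + 1. Work was done in Python 3.11.15 with pandas 2.3.3, numpy 2.4.6, scipy 1.17.1 and matplotlib 3.10.9, and the fold calls were tested on simulated data.

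The members and the lists of genes and loci were chosen with earlier results of these data known. Clusters named were the 10 with the highest mean CPM, those with the largest folds of each comparison (6, 5 or 4 in each direction), the 3 highest of each location, those near 25 loci of regulatory or structural noncoding RNAs, 6 antisense members by the fold of the sense gene and 6 divergent members by mean CPM. Others were named after their values were seen. Alternatives were other limits of fold and level, pseudocounts, median-of-ratios scaling, and removal of recurring clusters or of those on noncoding RNA genes and mobile elements.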

Additional observations from a re-analysis of the deposited data

Results flagged for a closer look

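In 3 members the strains went in opposite directions with DEH. The difference between the strains was not tested, and each group is 1 library. On the Ty2 element YBLWTy2-1, the cluster at chrII:30313-30441 had a log2 fold for DEH over glucose of 3.35 in BY_DEH++ (9.20 CPM in DEH, 0 in glucose) and of -5.05 in BY_DEH+ (0 CPM in DEH, 32.1 in glucose). In the ribosomal DNA unit RDN37-2, the cluster at chrXII:466869-466945 had a fold of -5.43 in BY_DEH++ (0 CPM in DEH, 42.3 in glucose) and of 4.28 in BY_DEH+ (18.4 CPM in DEH, 0 in glucose). In a Ty2 LTR, the narrow start at chrXIV:562124-562127 had a fold of -2.46 in BY_DEH++ (0 CPM in DEH, 4.52 in glucose) and of 2.01 in BY_DEH+ (16.6 CPM in DEH, 3.39 in glucose). All 3 lie on repeated sequence of the genome, and its part in the result was not tested.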

How the results depend on the processing

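With 1 library per group no replicate can be left out, and the planned fit of a count model on recovered reads was not run, because the deposited values did not pass as whole reads. No paired analysis was possible because each group holds 1 library and the groups share fewer than 2 replicate numbers. A fit with medium and strain as additive terms over the 5 libraries was not run.

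Counts of members called at 4-fold are given for DEH over glucose in BY_DEH++, then in BY_DEH+, mannitol over glucose, DEH over mannitol, the strains in DEH, the strains in glucose, and DEH over glucose in both strains; they were 232, 291, 383, 231, 107, 30 and 156. At 2-fold they were 520, 511, 639, 479, 365, 108 and 345. With a pseudocount of 10 CPM they were 31, 49, 53, 34, 7, 5 and 22, and with 0.1 CPM the strains gave 181 in DEH and 50 in glucose. With members of 20 CPM or more they were 118, 164, 223, 143, 49, 16 and 84, and with 50 CPM or more, added after the data were seen, 42, 59, 76, 54, 18, 6 and 31. With members of 5 CPM or more they were 365 and 439, then 171, 49 and 236 for the strains in DEH, the strains in glucose and both strains, and with no limit 453, 587, 735, 476, 242, 76 and 265. The strains in glucose gave 9 without clusters whose bases from the middle onward recur and 11 without those on noncoding RNA genes and mobile elements. Median-of-ratios scaling was checked on all members, small nucleolar RNA genes, LSR1, mobile elements, narrow LTR starts, and inside, upstream, antisense and intergenic starts. None of these turned the sign of its median. For DEH over mannitol the medians of all members, antisense and intergenic starts came to 0. So did those of inside starts for the strains in DEH and of upstream starts for the strains in glucose. Other groups were not checked.

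By location, a limit of 5 CPM gave 620 intergenic, 456 antisense, 146 inside and 25 upstream clusters, and 20 CPM gave 205 intergenic, 145 antisense, 55 mobile and 46 inside. A window of 1000 bases gave 46 upstream, and a distance of 150 bases left 34 divergent. Without ribosomal DNA clusters the shares of CPM were 3.74% in DEH and 4.21% in glucose in BY_DEH++, and 5.4% and 4.47% in BY_DEH+. In 100 bases TATAAA stood before 23.4% of members and 19.5% of assigned clusters, AAAAAAA before 25.1% and 34.1%, CGGGTAA before 3.40% and 6.98%, and TGACTC before 3.62% and 3.04%. Median-of-ratios scaling moved the median of all clusters by 0.17 for DEH in BY_DEH++, -0.05 in BY_DEH+ and 0.48 for mannitol. Of 169 called folds of named clusters 10 lost the call under that scaling, 81 with a pseudocount of 10 CPM and 0 with 0.1 CPM, and none was reversed. The cause of these shifts was not tested. Counting error at 10 CPM, 8.06 to 12.2 CPM in the smallest library, limits what weak members can show.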
